A study of Homo sapiens with 8 samples.

Results

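MHC class I molecules display short peptides from inside the cell to CD8 T cells. Each is a heavy chain, here HLA-B, HLA-C or HLA-E, held together with the light chain beta-2 microglobulin (B2M). Peptides cut by the proteasome are pumped into the endoplasmic reticulum by the TAP1 and TAP2 transporter. Tapasin (TAPBP) holds empty heavy chains beside that transporter, and the aminopeptidase ERAP1 trims the peptides to length. Interferon and NF-kB signalling are known to raise the transcription of most of these genes, and monocytic cells carry class I on their surface.

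RNA of 8 class I genes is described here in MonoMac 6, an established human line from acute monocytic leukaemia, with and without APRIL. APRIL (TNFSF13) is a cytokine of the TNF family. The genes were taken by symbol from the deposited table of 11530 genes. They were the heavy chains HLA-B, HLA-C, HLA-E and HLA-F, the light chain, and the loading genes TAP1, TAP2, TAPBP and ERAP1. Of these 9 names, 8 were in the table and HLA-F is not analysed here. All 8 passed the filter on low values, as did 11257 genes in all. The treated group (4 libraries) had human APRIL at 100 ng/mL for 24 h in RPMI without serum. The control group (4 libraries) had no APRIL, and the serum content of its medium is not stated. The labels give a growth medium with 10% fetal bovine serum, and the series text places baseline cytokines, which it does not name, in both groups. APRIL and the medium therefore cannot be told apart where the serum differed. The labels do not say whether the libraries came from separate cultures, so each p-value measures only how far these libraries scatter, and that scatter may be technical.

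The values are log2 values scaled by the authors, and a change is the APRIL mean minus the control mean on the log2 scale. The table's columns carry a group and no replicate number, so libraries are named by group and column. Whole reads recovered from the values gave 953547 to 5403606 reads per library over 11168 genes. APRIL column 3 was the shallowest, with a median of 40.5 reads per gene against 65 to 255 in the others. Of 10 monocytic markers, 8 were in the table, LYZ and MPO among them. Of 8 T and NK cell markers only TRAC and NKG7 were in the table. CD3D, CD3E and CD3G were not among the genes listed. NKG7 was highest in APRIL column 3 (log2 12.19, against 10.86 to 11.2 in the other APRIL columns and 10.75 to 10.93 in control). The change of NKG7 was +0.46, or +0.16 without APRIL column 3 and +0.018 with the length and GC trend described below removed. TRAC had +0.81 ± 0.37 (limma's adjusted p = 0.3999), or +0.97 without APRIL column 3 and +0.56 with that trend removed. It rested on few reads, from 1 in control column 2 to 20 in APRIL column 2. The part of these markers in the class I values was not tested. Of 8 B and plasma cell markers 3 were in the table, and of the erythroid and the stromal or epithelial markers 0 of 5 and 0 of 9.

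Promoter sequence was compared between some of the genes that were measured together. RefSeq promoters on GRCh38.p14 were matched by symbol for 8 of the 9 names (HLA-F among them, HLA-E not), while the submitters' processing notes name hg19 for the reads. The 200 bases before the start of HLA-B (chr6:31357180-31357379, minus strand), HLA-C (chr6:31272093-31272292, minus strand), B2M (chr15:44711317-44711516, plus strand) and TAP1 (chr6:32853705-32853904, minus strand) are shown 5′ to 3′ along the gene, since the results turn on these 4 genes. They are reference sequence and were not read from these cells. Capitals mark every match to the kappaB letters GGGNNNNNCC or the interferon regulatory factor (IRF) letters GAAANNGAA on either strand, and neighbouring matches run together.
HLA-B: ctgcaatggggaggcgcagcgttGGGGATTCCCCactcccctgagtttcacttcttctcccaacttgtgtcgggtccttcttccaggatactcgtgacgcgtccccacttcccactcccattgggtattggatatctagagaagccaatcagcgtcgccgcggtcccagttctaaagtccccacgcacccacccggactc
HLA-C: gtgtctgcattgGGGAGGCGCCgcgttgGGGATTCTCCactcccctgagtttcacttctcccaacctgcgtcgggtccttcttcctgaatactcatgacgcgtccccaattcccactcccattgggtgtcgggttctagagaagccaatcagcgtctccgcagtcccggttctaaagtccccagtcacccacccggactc
B2M: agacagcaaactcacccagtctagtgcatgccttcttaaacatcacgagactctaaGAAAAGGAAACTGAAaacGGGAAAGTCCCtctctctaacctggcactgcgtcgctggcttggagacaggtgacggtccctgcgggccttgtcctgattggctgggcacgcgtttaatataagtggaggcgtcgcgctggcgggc
TAP1: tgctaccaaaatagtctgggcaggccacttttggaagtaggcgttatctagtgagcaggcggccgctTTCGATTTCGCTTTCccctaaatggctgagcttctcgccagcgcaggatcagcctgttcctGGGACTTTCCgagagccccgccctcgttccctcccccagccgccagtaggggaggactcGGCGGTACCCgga
HLA-B and HLA-C were identical over 87.7% of their aligned 200 bases, against 42.3% for HLA-B with B2M and 45.6% for HLA-B with TAP1. Unrelated promoters were not aligned, so 42.3% and 45.6% are not shown to exceed the identity of unrelated sequences. The table holds 10 promoters for these 8 genes, since TAP1 and ERAP1 have 2 starts each, and the first listed is shown for TAP1. In the whole 250 bases before a start, the kappaB letters were found in 8 of the 10 promoters and in 54.4% of all 35116 RefSeq promoters. The IRF letters were found in 5 of the 10 and in 6.88% of all promoters. The letters TGACG, the core of a cyclic AMP response element (CRE), were found in 4 of the 10 and in 21.2% of all, and CCAAT in 6 of the 10 and in 32% of all, each on either strand. These are matches of letters, not sites shown to be used. The promoters of HLA-B and HLA-C held no match to the IRF letters. Elements spelled otherwise are missed by this search, so a promoter without a match is not shown to lack such an element. The start of TAP1 lies 488 bases from that of PSMB9, an immunoproteasome subunit on the other strand.

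None of the 8 class I genes passed limma's adjusted threshold of 0.05, and neither did any other tested gene (0% of 11257, smallest adjusted p = 0.3999, Benjamini-Hochberg over all tested genes). The changes of the 8 were positive for 7 and negative for 1, with a median of +0.11 against -0.0053 over all tested genes. The heavy chains HLA-B and HLA-C had the largest changes, +0.38 each, and B2M, with which they pair, had +0.03. At an unadjusted p under 0.05 limma had 1344 genes, among them 1 of the 8, HLA-B, on the higher side (background 6.25%) and 0 of the 8 on the lower side (background 5.69%). Every APRIL value exceeded every control value for HLA-B alone among the 8 (background 3.62%), and the reverse held for 0 of the 8 (background 4.19%). With so few genes these counts stand close to the background.

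HLA-B, a classical heavy chain, stood at 9.32, 9.17, 9.73 and 9.29 in APRIL columns 1 to 4 and at 8.75, 9.07, 9.02 and 9.16 in control columns 1 to 4. Every APRIL library was above every control library, though APRIL column 2 and control column 4 nearly met. The APRIL mean was 9.38 ± 0.24 (SD, n = 4) and the control mean 9.0 ± 0.18 (SD, n = 4), which made the change +0.38 ± 0.15 (standard error from limma) with a 95% interval of 0.044 to 0.71, or 1.30-fold. Limma gave an adjusted p of 0.3999, and exact permutation of the 8 libraries (two-sided, 70 relabelings) gave p = 0.0286, the smallest these groups allow. In the authors' deposited table the fold of HLA-B was 1.297 with a p-value of 0.04703.

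HLA-C, a classical heavy chain that also serves as a ligand of NK cell receptors, stood at 8.98, 8.93, 9.55 and 9.03 in APRIL columns 1 to 4 and at 8.39, 8.92, 8.73 and 8.94 in control columns 1 to 4. APRIL column 3 was far above the rest and control column 1 far below, and the other 6 libraries lay close together with the groups overlapping. The change was +0.38 ± 0.18 (95% interval -0.015 to 0.77, adjusted p = 0.3999 by limma, exact permutation p = 0.0571). HLA-E, the non-classical heavy chain that presents leader peptides of other class I chains to NK cells, stood at 5.89, 5.83, 5.98 and 5.79 with APRIL and at 5.51, 5.84, 5.72 and 5.76 in control. Its groups overlapped, with control column 1 again the lowest library. The change of HLA-E was +0.16 ± 0.12 (95% interval -0.11 to 0.44, limma's adjusted p = 0.489). Reads of the heavy chains can be exchanged between near-identical copies, so the split between HLA-B, HLA-C and the pseudogene HLA-H is uncertain.

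B2M, the light chain shared by all class I molecules, stood at 8.84, 8.78, 9.36 and 8.71 in APRIL columns 1 to 4 and at 8.97, 8.70, 9.0 and 8.90 in control columns 1 to 4. APRIL column 3 was the highest library, and the other 3 APRIL libraries lay within the control range. The change was +0.03 ± 0.16 (95% interval -0.32 to 0.38, limma's adjusted p = 0.925), and it was -0.11 without APRIL column 3. Taken within each library, the log2 difference between HLA-B and B2M was 0.48, 0.39, 0.37 and 0.58 with APRIL and -0.22, 0.37, 0.025 and 0.27 in control. Only APRIL column 3 fell below the highest control library, by less than 0.001, and control column 1 was far below all others. The mean of this difference was 0.34 higher with APRIL (exact two-sided permutation p = 0.0571, 0.267 after Benjamini-Hochberg adjustment over 7 gene pairs, which were chosen after their values were seen). For HLA-C minus B2M the shift was 0.35 (exact permutation p = 0.114) and for HLA-E minus B2M 0.13 (exact permutation p = 0.457), so no pair passed.

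**Figure D1:**
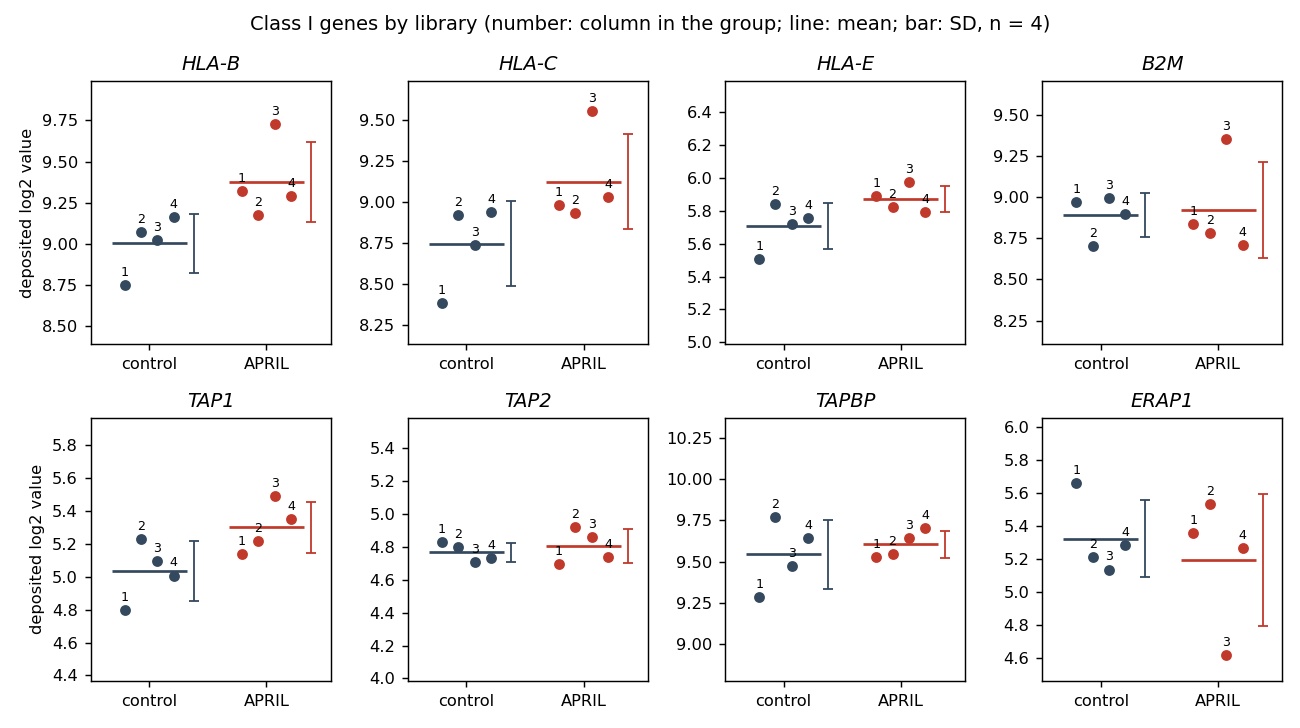
Deposited log2 value (vertical axis, with the same span in every panel and a different offset) of the 8 class I genes in 4 control and 4 APRIL libraries. Each point is a library, numbered by its column, the horizontal line is the group mean and the bar is the SD. HLA-B is the panel in which the groups do not overlap, and APRIL column 3 is the highest point for HLA-B, HLA-C, HLA-E, B2M and TAP1 and the lowest for ERAP1.

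Of the transporter chains, TAP1 stood at 5.14, 5.22, 5.49 and 5.35 in APRIL columns 1 to 4 and at 4.8, 5.23, 5.10 and 5.01 in control columns 1 to 4. APRIL columns 3 and 4 were above all control libraries, and columns 1 and 2 were below control column 2. The change was +0.27 ± 0.14 (95% interval -0.052 to 0.58, limma's adjusted p = 0.403, exact permutation p = 0.0857), or 1.20-fold. TAP2, the other chain of the same transporter, stood at 4.69, 4.92, 4.86 and 4.74 with APRIL and at 4.83, 4.8, 4.71 and 4.74 in control. Its 8 libraries were interleaved, with a change of +0.04 ± 0.12 (95% interval -0.23 to 0.30, limma's adjusted p = 0.882). Within libraries TAP1 minus TAP2 was 0.23 higher with APRIL (exact permutation p = 0.114), so the 2 chains were not shown to differ in their response.

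TAPBP, the tapasin bridge between transporter and heavy chain, stood at 9.53, 9.55, 9.64 and 9.70 with APRIL and at 9.29, 9.77, 9.47 and 9.64 in control. The control range enclosed the APRIL range, and the change was +0.06 ± 0.13 (95% interval -0.22 to 0.34, limma's adjusted p = 0.801). It turned to -0.024 without control column 1. ERAP1, the trimming peptidase, stood at 5.36, 5.53, 4.62 and 5.27 in APRIL columns 1 to 4 and at 5.66, 5.21, 5.14 and 5.28 in control columns 1 to 4. APRIL column 3 was the lowest library and control column 1 the highest, the reverse of the heavy chains. The change was -0.13 ± 0.21 (95% interval -0.59 to 0.34, limma's adjusted p = 0.746), and +0.063 without APRIL column 3. In that library ERAP1 rested on 29 reads (exact 95% Poisson interval 19.4 to 41.6), against 353 in APRIL column 2. HLA-B had 832 to 3601 reads in every library and TAP1 had 91 to 482, so counting error was small for the heavy chains. These intervals cover counting error only.

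The same 2 libraries set the extremes of most class I genes. APRIL column 3 was the highest library for 5 of the 8 (HLA-B, HLA-C, HLA-E, B2M and TAP1) and the lowest for ERAP1. Control column 1 was the lowest for 5 of the 8 (HLA-B, HLA-C, HLA-E, TAP1 and TAPBP) and the highest for ERAP1. Taken as a deviation from a gene's mean over the 8 libraries, HLA-B was at +0.54 in APRIL column 3 and -0.44 in control column 1, and between -0.17 and 0.13 in the other 6. Without both libraries the change was +0.17 for HLA-B, +0.12 for HLA-C, +0.12 for TAP1, +0.064 for HLA-E, -0.088 for B2M and +0.17 for ERAP1. HLA-B was then at an adjusted p of 0.654 by limma.

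Across all 8 libraries, Pearson's r was 0.981 between HLA-B and HLA-C, 0.896 between HLA-B and HLA-E and 0.861 between HLA-B and TAP1. It was 0.473 between HLA-B and B2M, 0.0920 between HLA-B and TAP2 and -0.798 between HLA-B and ERAP1. The heavy chains and TAP1 thus varied together, B2M and TAP2 less closely, and ERAP1 the other way. These are descriptions over 8 libraries that include both groups and the 2 extreme libraries. The genes also shared library and depth, while their base composition differed, as given below.

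**Figure D2:**
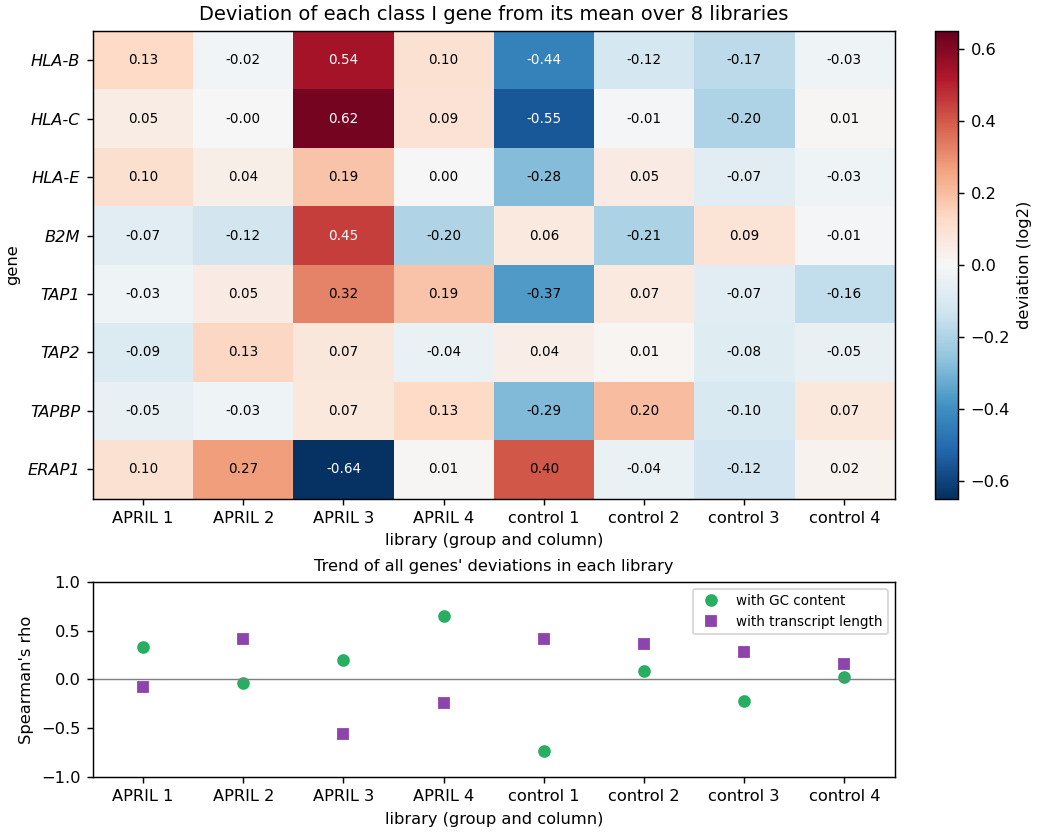
Upper panel, deviation (log2) of each class I gene from its mean over the 8 libraries, in columns by library. Lower panel, Spearman's rho over 10791 genes between all genes' deviations in a library and transcript length or GC content. APRIL column 3 holds the strongest positive deviations of the heavy chains and the lowest rho with length (-0.561), and control column 1 the most negative ones and the lowest rho with GC content (-0.737).

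Changes across all genes with annotated transcripts were correlated with transcript length and GC content, and the class I genes differed in both. Over 10791 genes with annotated transcripts, Spearman's rho of the change with APRIL was -0.537 against length and 0.507 against GC content, across genes that are not independent replicates. By library, the deviations of all genes had a rho with length of -0.561 in APRIL column 3, between -0.245 and 0.414 over APRIL columns 1, 2 and 4, and between 0.155 and 0.416 over the control libraries. Their rho with GC content was -0.737 in control column 1, -0.217 to 0.081 in the other control libraries, and 0.329, -0.042, 0.201 and 0.654 in APRIL columns 1 to 4. In APRIL column 4, with the highest rho with GC content, HLA-B and HLA-C were 0.099 and 0.092 above their means. The longest annotated transcripts of HLA-B and HLA-C were short (1547 and 1880 bases, against a median of 3624 over all matched genes) and rich in GC (59.0% and 62.7%, against a median of 47.9%). ERAP1 was long and GC-poor (5495 bases, 39.7%), B2M short and GC-poor (2403 bases, 40.6%), and TAP2 long (5684 bases, 49.1%). HLA-E had 2601 bases and 54.8%, TAP1 2959 bases and 57.5%, and TAPBP 3759 bases and 57.6%. Whether length or GC content set the change of any of these genes was not tested.

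With each library's trend with length and GC content removed, the changes were +0.021 for HLA-B, -0.016 for HLA-C, +0.0056 for HLA-E, +0.040 for B2M, +0.089 for TAP1, +0.17 for TAP2, -0.053 for TAPBP and +0.097 for ERAP1. The groups then overlapped for all 8. HLA-B stood at 9.27, 9.26, 9.18 and 9.09 in APRIL columns 1 to 4 and at 9.22, 9.16, 9.14 and 9.20 in control columns 1 to 4 on that scale. The 2 extreme libraries no longer stood apart for HLA-B, and its SDs were 0.082 with APRIL and 0.038 in control, smaller than in the deposited values. For TAP2, APRIL column 3 stood apart on that scale, at 5.20, with the remaining libraries between 4.65 and 4.84. The change of TAP2 was +0.077 with the trend removed and without the 2 extreme libraries. The 95% interval as deposited reached from 0.044 to 0.71 for HLA-B, and the limma standard error with the trend removed was 0.068. The median over the 8 genes was +0.030, with 6 of 8 positive. Taken within each library, the shift of HLA-B minus B2M with APRIL was then -0.020 (exact permutation p = 0.83). The shift of TAP1 minus TAP2 was -0.081 (exact permutation p = 0.457). The trends differed between the groups, so a response that itself followed length or GC content cannot be told apart from it.

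**Figure D3:**
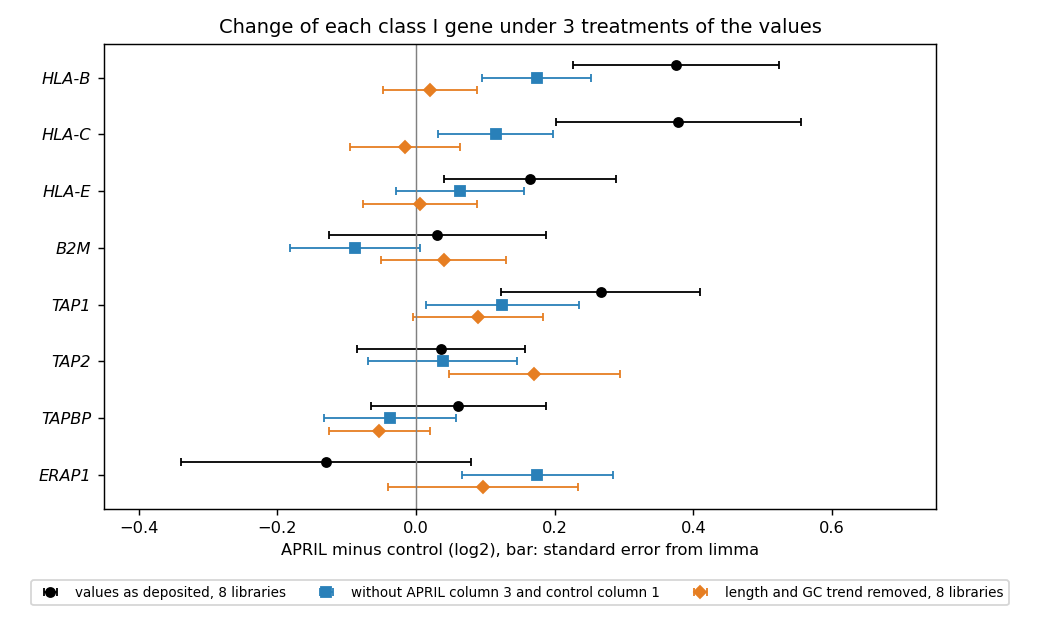
Change with APRIL (log2, horizontal axis) of each class I gene as deposited, without APRIL column 3 and control column 1, and with the length and GC trend removed. Points are limma estimates and bars their standard errors. HLA-B moves from +0.38 as deposited to +0.17 without those libraries and to +0.021 with the trend removed, while TAP2 goes from +0.04 to +0.17 with the trend removed, where APRIL column 3 is its highest library.

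The wider class I pathway was described with lists of other genes. Of 102 listed genes 77 were in the table and 76 were tested, with 42 positive and 34 negative changes and a median of +0.048. None passed limma's adjusted threshold. At an unadjusted p under 0.05 there were 6 higher and 4 lower of the 76 (background 6.25% and 5.69%), and the groups did not overlap for 3 higher and 3 lower (background 3.62% and 4.19%). These counts are near the background. With the trend removed the median was +0.016. The pathway as a whole was divided, and single lists leaned either way.

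HLA-H, a heavy chain pseudogene, stood at 5.72, 6.03, 5.92 and 6.22 with APRIL and at 5.26, 4.95, 5.71 and 5.54 in control. All APRIL libraries were above all control libraries, by a narrow gap between APRIL column 1 and control column 3. The change of HLA-H was +0.61 ± 0.19 (limma's adjusted p = 0.3999), and it was +0.59 without the 2 extreme libraries and +0.090 with the trend removed. HLA-H had 24 reads in control column 2 and 29 in APRIL column 3. Among class I-like molecules, 5 of 7 changes were positive. FCGRT, the neonatal Fc receptor chain that also pairs with B2M, had +0.67 ± 0.24, or +0.43 without APRIL column 3 and +0.36 with the trend removed. ULBP3, a ligand of the NK receptor NKG2D, had -0.59 ± 0.40, or -0.11 without APRIL column 3 and -0.95 with the trend removed. ULBP3 had 2 reads in APRIL column 3.

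The immunoproteasome subunits PSMB8, PSMB9 and PSMB10 replace the constitutive ones in cells exposed to interferon gamma. They were listed together with proteasome activator subunits and an assembly factor, and this list had positive changes in 5 of 7 genes and a median of +0.30. None of the 7 had an unadjusted p under 0.05. PSMB9 stood at 2.44, 2.15, 4.19 and 2.42 in APRIL columns 1 to 4 and at 1.59, 1.68, 2.37 and 2.19 in control columns 1 to 4. APRIL column 3 was far above every other library, and APRIL column 2 lay inside the control range. The change was +0.85 ± 0.41 (limma's adjusted p = 0.3999), +0.38 without APRIL column 3 and +0.82 with the trend removed. PSMB8 and PSMB10 had +0.44 ± 0.22 and +0.58 ± 0.30, or +0.20 and +0.24 without APRIL column 3. The activator subunits PSME1, PSME2 and PSME3 had +0.30, +0.18 and -0.12, and the assembly factor POMP had -0.030. PSME1 was at +0.0033 with the trend removed, and PSME2 at -0.027 without APRIL column 3.

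The constitutive subunits PSMB5, PSMB6 and PSMB7, which the immunoproteasome subunits replace, had +0.41, +0.40 and +0.26. As deposited both sets leaned positive, with a median of +0.40 for the 3 constitutive genes. With the trend removed that median was +0.045, and PSMB7 was at -0.0047. Within a library PSMB8 minus PSMB5 was 0.029 higher with APRIL (exact permutation p = 0.771), PSMB9 minus PSMB6 was 0.44 higher (p = 0.200) and PSMB10 minus PSMB7 was 0.32 higher (p = 0.229). With the trend removed PSMB9 minus PSMB6 was 0.78 higher (exact permutation p = 0.143). A shift from the constitutive towards the immune subunits was therefore not shown by these tests. Without APRIL column 3 the medians were +0.11 for the immunoproteasome list and +0.15 for the constitutive one.

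Peptidases, which shorten or destroy peptides in the cytosol and the endoplasmic reticulum, leaned down. Of 10 tested, 8 had negative changes, with a median of -0.23, or -0.14 without APRIL column 3 and -0.082 with the trend removed. LNPEP, the aminopeptidase of endosomes that trims peptides for cross-presentation, had -0.46 ± 0.19 and was at -0.18 without the 2 extreme libraries. THOP1, a cytosolic peptidase, had +0.35 ± 0.16, or +0.20 without them.

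The chaperones that fold class I were divided, with 7 positive and 5 negative changes and a median of +0.090, which was +0.022 after quantile normalization and turned to -0.0075 with the trend removed. CANX, calnexin, which holds the new heavy chain, stood at 8.21, 8.25, 7.96 and 8.06 with APRIL and at 8.61, 8.37, 8.36 and 8.35 in control. The 4 APRIL libraries lay below the 4 control libraries, with a change of -0.30 ± 0.12 (limma's adjusted p = 0.3999) and -0.15 with the trend removed. CALR and PDIA3, calreticulin and the disulphide isomerase of the loading complex, had +0.18 ± 0.13 and +0.07 ± 0.09. The tapasin relative TAPBPL had +0.39 ± 0.22, with 8 reads in control column 2 and 11 in APRIL column 3. With the trend removed CALR was at -0.030, PDIA3 at +0.17 and TAPBPL at +0.15. CALR and PDIA3 thus both had positive changes as deposited and opposite signs with the trend removed. None of these chaperones passed.

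Among the regulators of class I transcription, 6 changes were positive and 8 negative (median -0.039, or -0.084 with the trend removed). IRF1, an interferon-induced activator of these promoters, stood at 3.85, 3.84, 4.35 and 3.96 with APRIL and at 3.75, 3.24, 3.65 and 3.66 in control. The APRIL libraries were all above the control libraries, by less than 0.1 between the nearest. The change of IRF1 was +0.42 ± 0.17 (limma's adjusted p = 0.3999), +0.37 without the 2 extreme libraries and +0.48 with the trend removed. IRF1 rested on 18 reads in control column 2 and 24 in APRIL column 3. NLRC5, the transactivator of class I genes, had -0.07 ± 0.24, and its partners RFX5, RFXAP and RFXANK had -0.21, +0.054 and +0.24. Without APRIL column 3 NLRC5 was at +0.15, RFXAP at -0.10 and RFXANK at +0.043, and RFXANK was at -0.17 with the trend removed. ATF1 and NFYA, which bind the CRE and CCAAT letters of such promoters, had -0.43 ± 0.14 and -0.35 ± 0.13, with all APRIL libraries below all control libraries. Limma's adjusted p was 0.3999 for each. They were at -0.44 and -0.28 without the 2 extreme libraries and at -0.41 and -0.26 with the trend removed. STAT2, which carries the interferon signal, had +0.095, and the NF-kB subunits NFKB1 and RELA had -0.016 and +0.036, or +0.028 and -0.11 with the trend removed.

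Of 7 interferon receptors and kinases, 3 changes were positive and 4 negative (median -0.0070). IFNGR2 had +0.33 ± 0.13, with its APRIL libraries wholly above the control libraries, and was at +0.13 with the trend removed. JAK2 had -0.65 ± 0.30, with 8 reads in APRIL column 3. It was at -0.42 with the trend removed, -0.21 without the 2 extreme libraries and -0.18 with quality weights. Genes of class I turnover had 8 positive changes of 12 and a median of +0.054, led by MARCH8, a ubiquitin ligase of the cell membrane, at +0.44 ± 0.20. MARCH8 rested on 7 reads in control column 2 and 8 in APRIL column 3. SEL1L, an adaptor of protein disposal from the endoplasmic reticulum, had the most negative change of that list, -0.24 ± 0.14, and was at +0.050 with the trend removed. Of 12 genes listed as receptors for class I, only 3 were tested. Whether each of them binds class I was not checked, so the list may hold receptors of other ligands. LILRB4, an inhibitory receptor of monocytes, was at +0.48 ± 0.21 and the T cell coreceptor CD8A at -0.0034 ± 0.18.

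**Figure D4:**
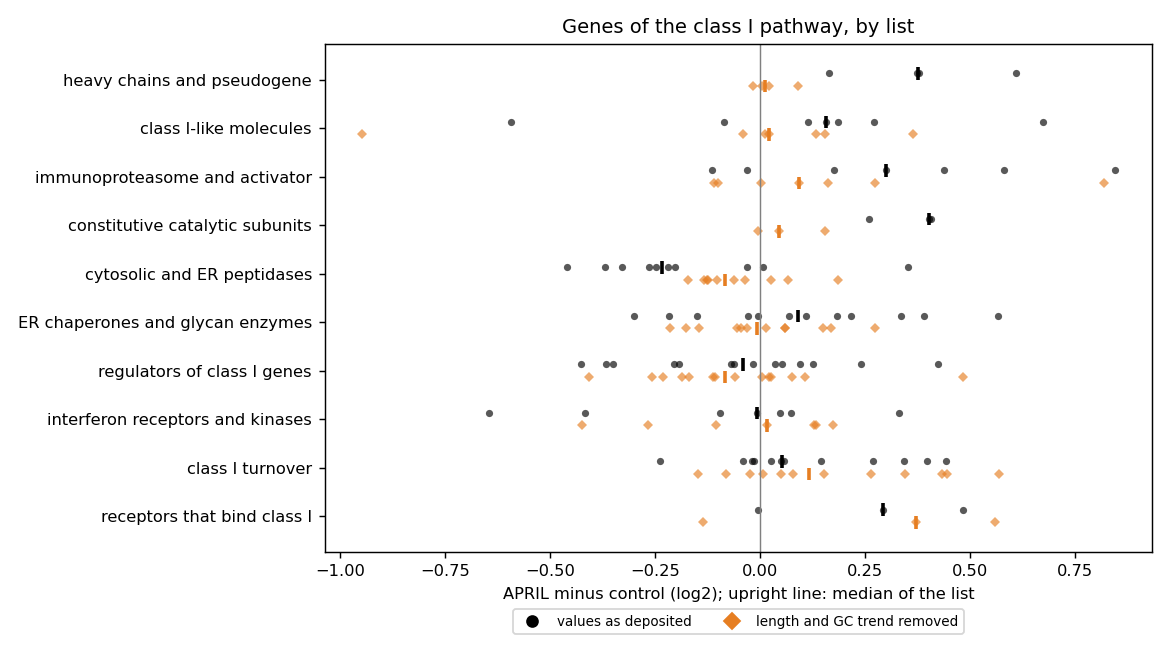
Change with APRIL (log2, horizontal axis) of the tested genes of 10 class I pathway lists, as deposited (circles) and with the length and GC trend removed (diamonds), 1 point per gene. Upright lines are list medians. The median of the heavy chain list, which includes HLA-B, HLA-C and HLA-E, goes from +0.38 to +0.013, that of the immunoproteasome list from +0.30 to +0.093 and that of the peptidases from -0.23 to -0.082.

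Genes with the most similar pattern were found by Pearson's r over the 8 libraries. For the mean of the 8 class I genes these were FAM98C (0.983), IGFBP7 (0.98), NDUFV1 (0.979), PSAP (0.978) and ANKRD54 (0.978). For HLA-B they were GRHPR (0.997), C12orf49 (0.996) and DEDD (0.995), for B2M ATP6V1D (0.988), PSMA4 (0.985) and N6AMT2 (0.983), and for TAP1 ASF1B (0.98), GRWD1 (0.977) and TYSND1 (0.977). The best match of each is the highest among all tested genes over 8 libraries, and it is given as a description. None of these 14 genes belonged to the class I lists.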

How the data were processed

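RNA was measured in 8 libraries of MonoMac 6, 4 with APRIL and 4 without, grouped by the labels. Libraries were made with the TruSeq RNA v2 kit, per the labels' protocols, which marks no strand, so overlapping and antisense genes cannot be told apart. TopHat2 2.0.13, bcl2fastq and hg19 are named in the submitters' processing notes. For the read counter, annotation and gene filter, nothing is stated in the sources used here. The authors deposited log2 values scaled by TMM factors (trimmed mean of M values), with a p-value and a linear fold per gene, per the file headers. The divisor behind each value is not gene length, so levels are not compared between genes.

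Whole reads were recovered from the log2 values for 11168 of 11530 genes (96.9%), and for 0 of 500 with moved constants. B2M was not recovered. The 11257 genes that reached a linear value of 1 in 4 or more libraries entered limma 3.58.1 in R 4.3.3, with trend and robust options, group as the only term, two-sided, with Benjamini-Hochberg adjustment at 0.05. On simulated data with 200 of 11257 genes changed, this fit found 63% of the genes moved by 1 log2 unit and 92% of the genes moved by 2. The simulated noise was independent between genes and libraries and held no length or GC trend, unlike the real libraries. Changes under 1 log2 unit were not simulated, so these shares do not apply to changes as small as those of the class I genes. Single genes and gene pairs were also compared by exact two-sided permutation tests. Length and GC content came from GENCODE 29, matched by symbol (10584 genes) or RefSeq synonym (450), and their trend was removed per library with natural splines of 3 degrees of freedom each. Quality weights, voom on the recovered reads with the deposited scaling, quantile normalization, other filters and left-out libraries were alternatives. The design foresaw voom with newly computed TMM factors, and the deposited ones were used in their place.

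The 9 names and all lists were chosen with earlier results of these data known. Genes named are the class I genes, any tested gene of the heavy chain, immunoproteasome, chaperone and regulator lists, the largest positive and negative change of each other list, and the genes of most similar pattern. PSMB5, PSMB6 and PSMB7 and the monocytic and T cell markers were named in addition, after their values were seen. Some listed genes are not reported here. Plots used matplotlib 3.10.9, and the other steps scipy 1.17.1, pandas 2.3.3 and numpy 2.4.6 in Python 3.11.15.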

Additional observations from a re-analysis of the deposited data

Results flagged for a closer look

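HLA-C in APRIL column 3, at a log2 value of 9.55, lay farther from the other 3 APRIL libraries than Dixon's 95% limit for 4 values allows (gap over range 0.847). It was the only value so marked among 16 groups of 4 examined, where chance marks about 1 in 20. Without that library the change of HLA-C was +0.23.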

How the results depend on the processing

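HLA-B, HLA-E and TAP1 kept a positive change under all 18 alternatives, from 0.021 to 0.44, 0.0052 to 0.21 and 0.048 to 0.33. Other filters and limma without its trend and robust options cannot alter the change of a gene, and the rest reuse the same libraries. The 18 are therefore not independent, and their count does not measure how firm a direction is. None of the 8 class I genes passed in any (adjusted p 0.212 to 0.898 for HLA-B). Directions that turned are given next, and the cause was not tested. With library quality weights limma called 4 genes, none of them a class I gene reported here, with 1917 genes at an unadjusted p under 0.05, and B2M was at -0.073, TAPBP at -0.038, TAP2 at -0.0043 and ERAP1 at +0.12. With the length and GC trend removed HLA-C was at -0.016, TAPBP at -0.053 and ERAP1 at +0.097, and the median over the 8 genes was 0.030. Without APRIL column 3 and control column 1, B2M was at -0.088, TAPBP at -0.037 and ERAP1 at +0.175. With the trend removed and both libraries left out, an alternative chosen after seeing the data, B2M was at -0.059, ERAP1 at +0.26, HLA-C at -0.050, TAPBP at -0.099 and the median at 0.022. Quantile normalization put B2M at -0.0068. Leaving out each library in turn gave 0.26 to 0.44 for HLA-B, 0.23 to 0.44 for HLA-C, -0.11 to 0.10 for B2M (-0.032 without control column 2), -0.24 to 0.063 for ERAP1, -0.0029 to 0.072 for TAP2 and -0.024 to 0.14 for TAPBP, with 0 genes called each time and a median over the 8 of 0.078 to 0.17. Without APRIL column 3 HLA-B fell from +0.38 to +0.26. No paired analysis was possible because the table's columns carry no replicate number. B2M has no value with voom on recovered reads. Depth limits ERAP1 and TAP2 most in APRIL column 3, with 29 and 69 reads.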
